A study of Mus musculus with 6 samples.

Results

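The mouse genome carries 39 Hox genes, and all 39 were rows of the count table of 55453 genes. They were taken by symbol, a cluster letter a to d followed by a paralogue number. The table holds RNA from aortae of 2 mice homozygous for a floxed Srf allele and 3 mice heterozygous for it. All of them also carried Itga8-CreERT2, a tamoxifen-activated Cre recombinase under an integrin gene that smooth muscle cells use, and all received 5 daily intraperitoneal doses of 33 mg/kg tamoxifen. The controls thus lack 1 Srf copy wherever the Cre acted. Srf encodes serum response factor, a transcription factor of muscle genes. Per the labels' protocols, each aorta ran from the descending arch to the renal level, was collected 10 days after dosing ended, and had its adventitia and endothelium peeled away. The labels state neither age nor sex. The labels also list homozygous replicate 1, which was not analysed here, and the design text says that 1 homozygous sample was set aside as an outlier.

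Hox genes encode transcription factors with a homeodomain, a short DNA-binding fold. They lie in 4 clusters, and genes at the same place in different clusters are paralogues with the same number. In the embryo, low-numbered genes come on toward the head and high-numbered genes toward the tail, and adult connective tissue and vascular smooth muscle keep part of that pattern as a record of body level. HOX proteins bind DNA together with PBX, MEIS and PKNOX proteins, a related homeodomain family.

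On GRCm38 the Hoxa cluster (11 genes) lies on chromosome 6, and Hoxb spans chromosome 11 from 96194316 to 96368256 (10 genes), Hoxc chromosome 15 from 102921103 to 103036852 (9 genes) and Hoxd chromosome 2 from 74668310 to 74765142 (9 genes). Library totals ran from 26177821 to 34311855 counts. Hox genes took 7022 and 7788 counts in homozygous replicates 2 and 3, against 8710, 8263 and 5770 in heterozygous replicates 1, 2 and 3, that is 0.022% to 0.027% of each library. Of the 39 genes, 27 passed the low-count filter of edgeR and were tested. Another 7 had counts too low to test, and 5 (Hoxb13, Hoxc13, Hoxd1, Hoxd12 and Hoxd13) had no count in any library. A count of 0 allows up to 3 counts, which is 0.0889 to 0.119 CPM per library (CPM, counts scaled by TMM to a common library size). Floors and counting intervals cover counting error only.

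Srf itself stood at 44.9 and 38.6 CPM in homozygous libraries, against 56.0, 64.4 and 68.2 CPM in heterozygous libraries, so every homozygous value was lower. Its log2 fold change was -0.59 (SE 0.122, adjusted p = 0.115 by edgeR and 0.00371 by DESeq2), and counts over the whole gene include exons that the deletion may leave. Heterozygous replicate 3 was far from the rest in a principal component analysis, with a score on the leading axis (51.6% of variance) of 56.4, against -20.5 and -42.9 for the homozygous and -1.7 and 8.7 for the other heterozygous libraries. The summed level of smooth muscle markers was lower in the homozygous libraries, while markers of several other tissues were higher and those of some were lower. A list of 10 smooth muscle markers summed to 14370 and 14020 CPM in homozygous libraries, against 23650 to 24650 CPM in heterozygous libraries. The 12 skeletal muscle markers, all tested, summed to 1009 and 2732 CPM in homozygous libraries, against 10.97 to 683 CPM in heterozygous libraries. The 8 brown fat markers, 7 of them tested, summed to 976 and 886 CPM in homozygous libraries, against 234 to 604 CPM in heterozygous libraries. The 8 macrophage markers summed to 375 and 506 CPM in homozygous libraries, against 234 to 308 CPM in heterozygous libraries. In each of these lists the sums of homozygous and heterozygous libraries did not overlap. Kidney markers were near 0, with a sum of at most 0.522 CPM and with Umod, Slc12a1, Kap and Slc34a1 at 0 throughout. Endothelial markers (1160 and 418 CPM in homozygous, 769 to 1015 CPM in heterozygous libraries) and adventitial fibroblast markers (1812 and 2014 CPM against 1300 to 1841 CPM) remained present in the stripped vessels. In bulk tissue, fewer cells of a type and less RNA per cell cannot be told apart. The part that these tissues play in the Hox values was not tested.

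Hox expression in every library centred on the middle paralogues. Per kilobase of exon, paralogue group 6 had the highest summed level, 21.9 and 19.4 CPM per kb in homozygous libraries and 22.4, 19.5 and 20.9 CPM per kb in heterozygous libraries. Group 5 followed with a mean of 17.4 CPM per kb over the 5 libraries, then group 4 with 12.6, group 3 with 10.7 and group 7 with 10.0. Groups 3 and 7 overlapped in their ranges over libraries, so their order is not fixed by these data. The order below group 6 also depends on the length used, since Hoxa3 has 6014 bases of exon in all but 2591 in its longest transcript. Groups 3 to 7 together held 80.0% and 78.1% of the summed Hox level in homozygous libraries, against 76.9%, 76.1% and 81.3% in heterozygous libraries. The level fell off toward both ends of the series. Group 2 averaged 5.01 CPM per kb. Group 8 averaged 5.84 CPM per kb, group 9 4.20 and group 10 3.51. Group 11 averaged 0.265 CPM per kb, group 12 0.00595 and group 13 0.0232.

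**Figure D1:**
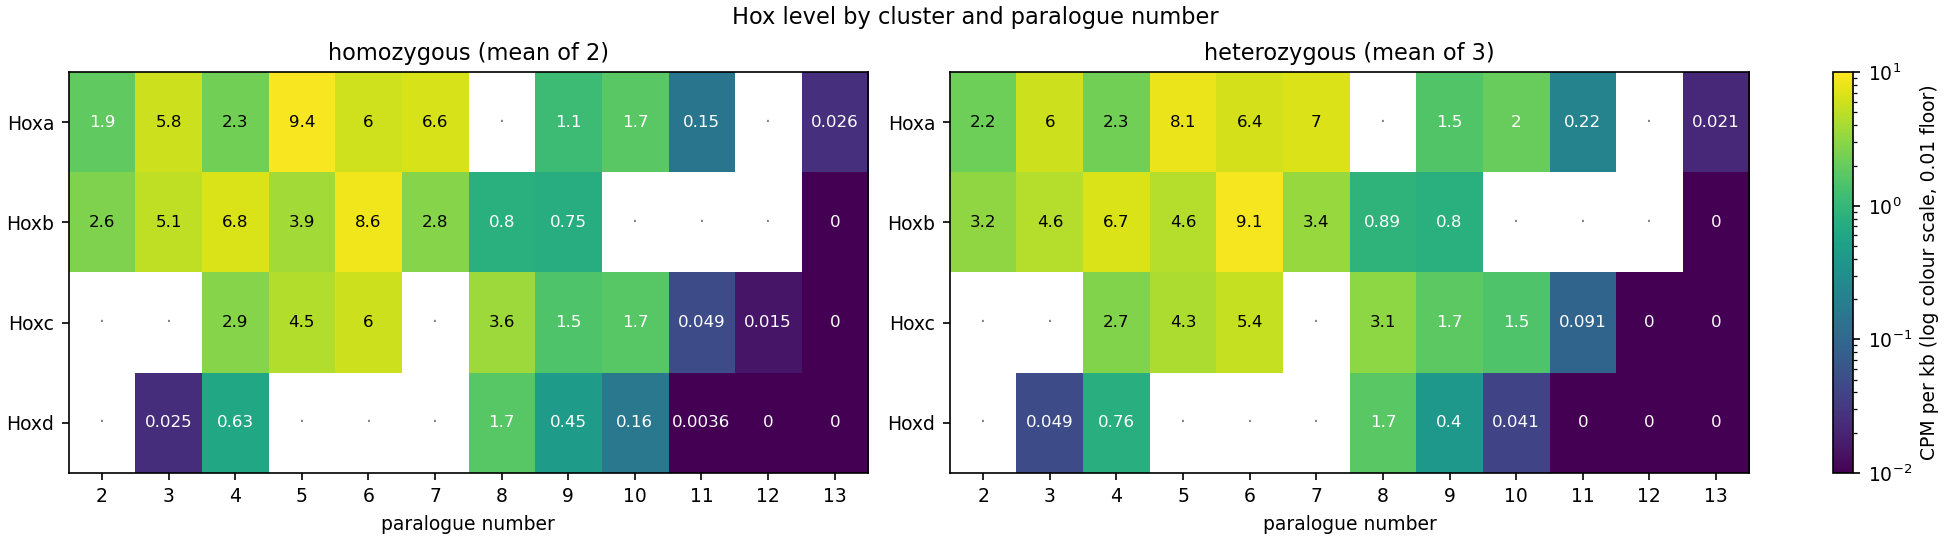
Mean level of each Hox gene in CPM per kb of exon, with clusters as rows and paralogue numbers from 2 as columns, in homozygous libraries (left panel) and heterozygous libraries (right panel). Colour is on a log scale, a dot marks a place with no gene, and in both panels the high values lie between paralogues 3 and 7 of the Hoxa, Hoxb and Hoxc clusters.

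The clusters differed in level and in where they peaked. Hoxa summed to 35.6 and 36.1 CPM per kb in homozygous libraries and to 39.4, 36.2 and 34.2 in heterozygous libraries. Hoxb summed to 33.6 and 29.4 CPM per kb in homozygous libraries and to 34.2, 32.6 and 33.1 in heterozygous libraries. Hoxa was above Hoxb within every library, though their ranges over libraries met. Without members overlapping other genes over 20% of exons, the mean share of Hoxb was the larger. It was then 34.1% against 33.5% for Hoxa in homozygous libraries, and 36.7% against 33.5% in heterozygous libraries. Hoxc (15.6 to 22.1 CPM per kb over the 5 libraries) lay below both and Hoxd (2.45 to 3.34 CPM per kb) lowest of all. Hoxa peaked at Hoxa5 (mean 8.65 CPM per kb), Hoxb at Hoxb6 (8.93), Hoxc at Hoxc6 (5.63) and Hoxd at Hoxd8 (1.70). On this scale Hoxb6 was the highest Hox gene in 3 libraries and Hoxa5 in the other 2, so these neighbours in the order cannot be separated. The order depends on the length used. Hoxa3 has 6014 bases of exon in all but 2591 in its longest transcript, by which it would rank above both in every library. Hoxb4 (6.76), Hoxa7 (6.85), Hoxa6 (6.26) and Hoxa3 (5.91 CPM per kb) came next, with overlapping ranges.

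Promoter windows from RefSeq (GRCm38.p6), running from 250 bases before to 50 after an annotated start, were at hand for 22 of the 39 genes, 24 windows in all. Shown here are those of Hoxa5, the highest gene of the Hoxa cluster per kilobase of exon, and of Hoxa10. Hoxa10 is the gene of the posterior end that varied most between libraries among those with over 1 CPM. It has a window at each of its 2 annotated starts. Capitals mark CCAAT read on either strand.
Hoxa5, chr6:52204538-52204837 on the minus strand: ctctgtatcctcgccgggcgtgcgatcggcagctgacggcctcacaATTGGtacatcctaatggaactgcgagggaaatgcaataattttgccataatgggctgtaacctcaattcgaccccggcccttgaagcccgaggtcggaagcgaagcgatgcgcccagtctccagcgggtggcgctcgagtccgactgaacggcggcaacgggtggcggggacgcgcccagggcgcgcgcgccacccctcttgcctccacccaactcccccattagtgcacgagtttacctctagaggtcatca
Hoxa10, chr6:52240805-52241104 on the minus strand: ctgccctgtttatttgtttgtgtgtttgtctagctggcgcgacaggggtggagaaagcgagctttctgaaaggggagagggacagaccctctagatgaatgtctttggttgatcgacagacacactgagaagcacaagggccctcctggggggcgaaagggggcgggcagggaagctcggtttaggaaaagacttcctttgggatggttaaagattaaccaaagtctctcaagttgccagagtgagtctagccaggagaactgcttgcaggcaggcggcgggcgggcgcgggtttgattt
Hoxa10, chr6:52234890-52235189 on the minus strand: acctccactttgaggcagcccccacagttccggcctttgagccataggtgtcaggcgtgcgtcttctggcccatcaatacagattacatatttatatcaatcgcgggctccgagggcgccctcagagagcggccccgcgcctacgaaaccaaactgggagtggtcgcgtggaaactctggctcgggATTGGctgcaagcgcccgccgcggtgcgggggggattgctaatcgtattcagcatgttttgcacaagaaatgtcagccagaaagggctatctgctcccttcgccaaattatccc
CCAAT occurred in 15 of the 24 Hox windows (62.5%), against 37.4% of all 32851 windows, and TATAAA in 4 of 24 (16.7%), against 13.6%. The CArG box, the sequence that serum response factor binds, was searched on both strands in its strict form. It occurred in 0 of the 24 Hox windows, against 1.63% of all windows. The Hox windows held a median of 14.5 CG steps, against 7 over all windows. These matches describe the letters of the windows only.

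The comparison of homozygous with heterozygous libraries sets deletion of both Srf copies against deletion of 1. The summed Hox level was 90.5 ± 2.25 CPM per kb in homozygous libraries (SD, n = 2) and 91.7 ± 6.78 in heterozygous libraries (SD, n = 3), a difference smaller than the spread between replicates. The mean paralogue number, weighted by level, was 5.42 and 5.48 in homozygous libraries and 5.54, 5.53 and 5.33 in heterozygous libraries. The homozygous values lay inside the heterozygous range, and the group means differed by -0.014, or by -0.084 without heterozygous replicate 3, where both homozygous values were lower. Paralogues 1 to 4 held 31.9% ± 0.173 of the summed level in homozygous libraries (SD, n = 2) and 31.99% ± 1.23 in heterozygous libraries (SD, n = 3). Paralogues 5 to 8 held 59.7% ± 0.467 in homozygous and 59.0% ± 0.758 in heterozygous libraries. Paralogues 9 to 13 held 8.37% ± 0.640 in homozygous and 8.97% ± 1.90 in heterozygous libraries. On this scale all 3 differences were smaller than the SD of the heterozygous libraries, but that depended on the scale and on single libraries. For paralogues 5 to 8 the difference exceeded that SD, and the groups did not overlap, without length scaling (49.07% ± 0.181 in homozygous and 48.18% ± 0.438 in heterozygous libraries), by longest transcript (56.2% ± 0.156 and 55.4% ± 0.511) and without the highest member (55.4% ± 0.117 and 54.5% ± 0.315). It stayed below that SD, with overlapping groups, on a log2 scale of CPM (47.3% ± 0.279 and 46.8% ± 0.801). The same held without members overlapping other genes over 20% of exons (68.2% ± 1.20 and 67.4% ± 1.44). Without heterozygous replicate 3 all 3 differences exceeded the SD of the remaining heterozygous libraries, at 0.64 percentage points for paralogues 1 to 4, 1.05 for 5 to 8 and -1.69 for 9 to 13. Leaving out homozygous replicate 3 gave 0.98 percentage points for paralogues 5 to 8, also above the heterozygous SD of 0.758.

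No Hox gene passed the test. By edgeR's quasi-likelihood test with Benjamini-Hochberg adjustment over 18192 genes, 0 of the 27 tested members had an adjusted p under 0.05, and over all genes 0 did (0%). At an unadjusted p under 0.05 there were again 0 of the 27 Hox members, against 2872 of all genes tested (15.8%, with 9.04% higher and 6.75% lower in homozygous libraries). DESeq2 called 0 Hox members and 935 genes in all (5.97%), and limma-voom called 0 Hox members and 1 gene in all (0.00550%). The median log2 fold change, homozygous over heterozygous, was -0.08 over the 27 Hox members and -0.02 over all genes. Of the 27, 17 lay below 0 (63.0%, against 52.8% of all genes). By cluster these were 8 of 10 tested in Hoxa, 6 of 8 in Hoxb, 1 of 6 in Hoxc and 2 of 3 in Hoxd. Groups did not overlap for 6 of the 27 (22.2%, against 35.6% of all genes), 4 of them lower (against 18.2% of all genes) and 2 higher (against 17.4%) in homozygous libraries. The 10 smooth muscle markers had a median of -0.70 in the same fit, with 8 lower at an unadjusted p under 0.05 and 0 by adjusted p.

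**Figure D2:**
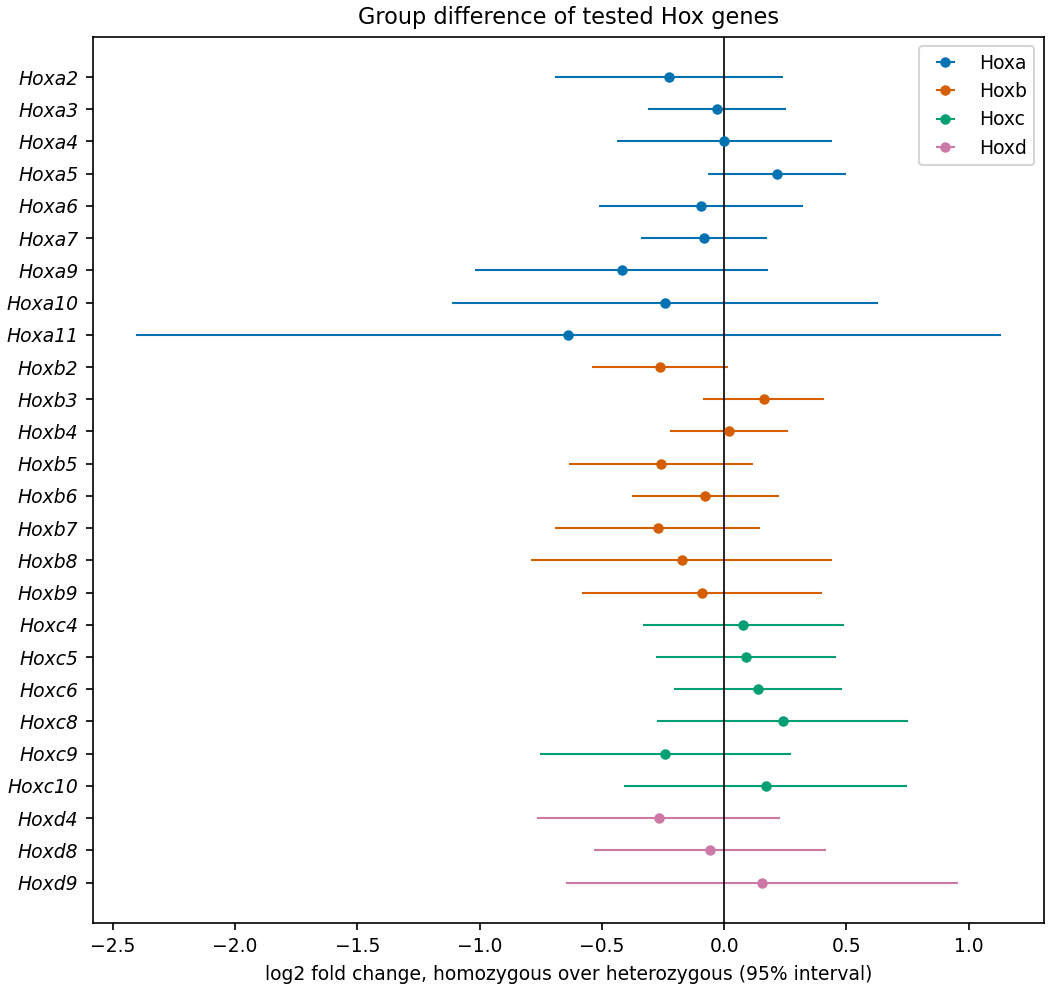
Log2 fold change, homozygous over heterozygous, of 26 tested Hox genes with its 95% interval from the edgeR fit, coloured by cluster. All 26 intervals include 0, and the widest is that of Hoxa11, from -2.40 to 1.13.

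The intervals show how large a change these libraries could have missed. For 24 of the 27 members the 95% interval of the log2 fold change lay within 1 of 0, that is within a 2-fold change either way, and for 14 it lay within a 1.5-fold change. The other 3 were Hoxa9 (-1.02 to 0.18), Hoxa10 (-1.11 to 0.63) and Hoxa11 (-2.40 to 1.13). A miss of the threshold does not show that levels were equal.

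Among the anterior genes, Hoxa2 and Hoxb2 belong to the group that patterns the hindbrain and the pharyngeal arches. Hoxb2 stood at 9.01 and 9.36 CPM in homozygous libraries, against 11.3, 11.2 and 10.5 CPM in heterozygous libraries. Every homozygous value was below every heterozygous one, with a log2 fold change of -0.26 (SE 0.118). Its unadjusted p of 0.0613 was the lowest of the family in the edgeR fit, and its adjusted p was 0.343. Hoxa2 stood at 3.29 and 3.38 CPM in homozygous libraries, against 4.42, 3.94 and 3.30 CPM in heterozygous libraries. Heterozygous replicate 3 shared the homozygous level (log2 fold change -0.23, SE 0.197).

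Hoxa3, needed in mice for the carotid arteries and other derivatives of the third pharyngeal arch, had the most counts of any Hox gene. It stood at 36.7 and 33.6 CPM in homozygous libraries, against 39.2, 31.5 and 36.7 CPM in heterozygous libraries. The groups overlapped fully (log2 fold change -0.03, SE 0.119). Hoxb3 stood at 23.1 and 20.4 CPM in homozygous libraries, against 19.8, 19.9 and 18.6 CPM in heterozygous libraries. Homozygous values were all higher, by a log2 fold change of 0.16 (SE 0.105, adjusted p = 0.512 by edgeR), which was 0.07 without homozygous replicate 2 and 0.25 without homozygous replicate 3. Of the exon bases of Hoxb3, 52.9% overlap exons of other genes, namely the antisense Hoxb3os, and no source used here gives the strand setting of the counting. The same limit holds for Hoxa3 (25.4% on the opposite strand), Hoxa7 (20.4%), Hoxa11 (35.0%) and Hoxb2 (27.3%). Hoxd3 (62.3%) and Hoxd4 (52.3%) overlap other genes, each other included, on their own strand, which no strand setting separates.

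Hoxb4, known for its effect on blood stem cells, was the steadiest of the abundant members. It stood at 17.7 and 17.2 CPM in homozygous libraries, against 17.6, 16.3 and 17.9 CPM in heterozygous libraries. The log2 fold change of 0.02 (SE 0.102) had the narrowest interval of the family, -0.22 to 0.26. Hoxd4 stood at 1.73 and 2.00 CPM in homozygous libraries, against 2.27, 2.31 and 2.15 CPM in heterozygous libraries. Its groups did not overlap (log2 fold change -0.27, SE 0.210, adjusted p = 0.595 by edgeR). Hoxa4 and Hoxc4 gave 0.00 and 0.08, with overlapping groups.

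Among the central genes, Hoxa5, which patterns the lung and the neck-to-thorax boundary in mice, stood at 17.5 and 17.99 CPM in homozygous libraries, against 14.3, 17.0 and 14.4 CPM in heterozygous libraries. Both homozygous values were above all heterozygous ones, with heterozygous replicate 2 the nearest to them. The log2 fold change came to 0.22 (SE 0.119, interval -0.07 to 0.50, adjusted p = 0.441 by edgeR), and it was 0.32 without heterozygous replicate 2 (unadjusted p = 0.0309, adjusted p = 0.298). Hoxb5 stood at 12.5 and 9.15 CPM in homozygous libraries, against 13.6, 12.1 and 13.1 CPM in heterozygous libraries. The low value was that of homozygous replicate 3 alone. The log2 fold change was -0.26 (SE 0.159), and it was -0.50 without homozygous replicate 2 (edgeR unadjusted p = 0.0240, adjusted p = 0.405) and -0.05 without homozygous replicate 3. Hoxc5 stood at 13.8 and 14.3 CPM in homozygous libraries, against 15.5, 13.01 and 11.1 CPM in heterozygous libraries, and the groups overlapped (log2 fold change 0.09, SE 0.155).

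The group 6 genes, the highest of the series, did not separate the genotypes. Hoxb6 stood at 18.9 and 15.1 CPM in homozygous libraries, against 17.6, 17.4 and 18.7 CPM in heterozygous libraries (log2 fold change -0.08, SE 0.127). Hoxc6 stood at 14.9 and 13.8 CPM in homozygous libraries, against 15.1, 12.6 and 11.4 CPM in heterozygous libraries (0.14, SE 0.145). Hoxa6 gave -0.09 (SE 0.177), with 5.33 and 5.19 CPM in homozygous libraries, against 4.77 to 6.24 CPM in heterozygous libraries. In all 3 genes the groups overlapped.

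Hoxa7 stood at 18.6 and 19.5 CPM in homozygous libraries, against 22.0, 19.0 and 19.4 CPM in heterozygous libraries, with overlapping groups and a log2 fold change of -0.08 (SE 0.109). Hoxb7 stood at 4.35 and 4.42 CPM in homozygous libraries, against 5.96, 5.24 and 4.65 CPM in heterozygous libraries. All homozygous values were lower, with a log2 fold change of -0.27 (SE 0.177, adjusted p = 0.511 by edgeR). Hoxc8, which shapes the lower thoracic skeleton in mice, stood at 9.15 and 11.4 CPM in homozygous libraries, against 9.99, 9.66 and 6.40 CPM in heterozygous libraries. Heterozygous replicate 3 was the low sample, and the groups overlapped (0.24, SE 0.217). Hoxd8 stood at 4.63 and 4.48 CPM in homozygous libraries, against 4.89, 5.48 and 3.82 CPM in heterozygous libraries, again with heterozygous replicate 3 lowest (-0.06, SE 0.201). Hoxb8 gave -0.17 and overlapped.

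**Figure D3:**
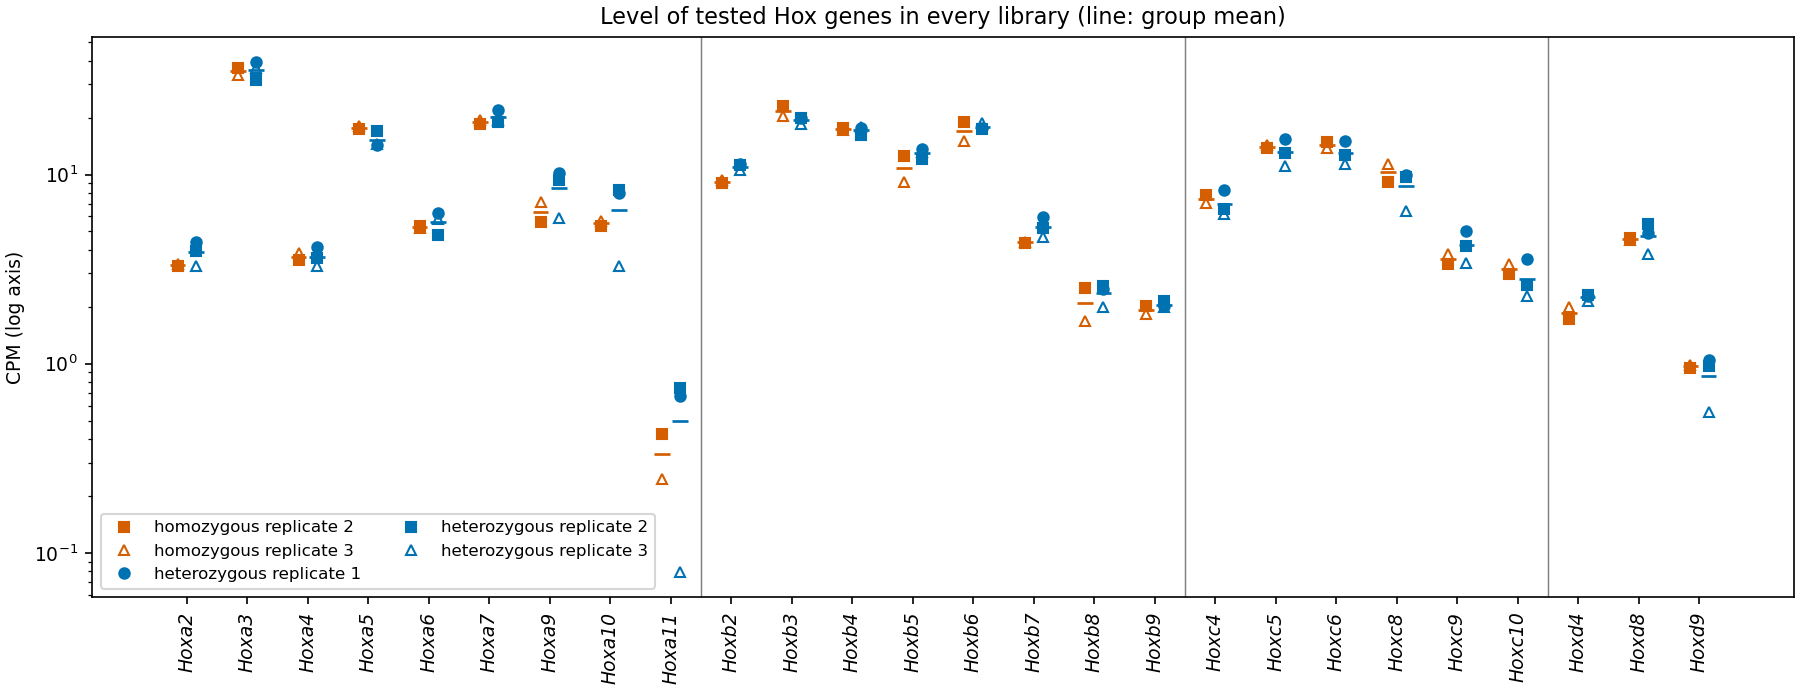
CPM on a log axis of 26 tested Hox genes in each library, ordered by cluster and paralogue number, homozygous libraries in orange and heterozygous libraries in blue, with a line at each group mean. In Hoxa9, Hoxa10 and Hoxa11 heterozygous replicate 3 (open blue triangles), at 5.92, 3.30 and 0.0795 CPM, lies below the other heterozygous libraries, and in Hoxa10 and Hoxa11 below the homozygous ones too.

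Of the posterior genes, Hoxa9, Hoxa10 and Hoxa11 had differences between the group means smaller than the SD of the heterozygous libraries. Hoxa9, a factor of blood and endothelial cells as well as of the lower trunk, stood at 5.58 and 7.12 CPM in homozygous libraries, against 10.2, 9.31 and 5.92 CPM in heterozygous libraries. Hoxa10, a factor of the lumbar region and the uterus, stood at 5.37 and 5.71 CPM in homozygous libraries, against 8.02, 8.24 and 3.30 CPM in heterozygous libraries. Hoxa11, which acts in the kidney and the limb, stood at 0.424 and 0.246 CPM in homozygous libraries, against 0.676, 0.741 and 0.0795 CPM in heterozygous libraries. In all 3 genes heterozygous replicates 1 and 2 were the high samples and replicate 3 lay near or below the homozygous values, so the groups overlapped. The log2 fold changes were -0.42 (SE 0.254) for Hoxa9, -0.24 (SE 0.368) for Hoxa10 and -0.64 (SE 0.748) for Hoxa11, with edgeR adjusted p from 0.481 to 0.800.

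Without heterozygous replicate 3 these 3 neighbours no longer overlapped between the groups, and none passed the adjusted threshold. The log2 fold changes were then -0.60 for Hoxa9 (edgeR unadjusted p = 0.0118, adjusted p = 0.182), -0.54 for Hoxa10 (0.0103, adjusted p = 0.173) and -1.07 for Hoxa11 (0.0360, adjusted p = 0.270). That library was chosen for removal after its low values were seen, and several other removals moved the folds toward 0. Hoxa10 gave -0.07 without heterozygous replicate 1 and -0.02 without heterozygous replicate 2. Hoxa9 gave -0.26 when heterozygous replicate 1 was left out, and the same when homozygous replicate 2 was, while Hoxa11 gave -0.39 without heterozygous replicate 1, -0.25 without heterozygous replicate 2 and -0.28 without homozygous replicate 3. Some removals of a homozygous library moved a fold away from 0, with -0.61 for Hoxa9 without homozygous replicate 3 and -1.06 for Hoxa11 without homozygous replicate 2. In the fit without heterozygous replicate 3, Hoxa9, Hoxa10 and Hoxa11 were the 3 Hox members lower at an unadjusted p under 0.05, against 6.52% of all genes there. The share of the summed Hox level held by paralogues 9 to 13 was 7.92% and 8.82% in homozygous libraries, against 10.1% and 9.98% in heterozygous replicates 1 and 2, while heterozygous replicate 3 had 6.78%.

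Set against heterozygous replicates 1 and 2 together, heterozygous replicate 3 had 0.608 times their Hoxa9 (95% counting interval 0.505 to 0.728), 0.406 times their Hoxa10 (0.318 to 0.512) and 0.112 times their Hoxa11 (2 counts, 0.0132 to 0.428). The median ratio was 0.936 over the 9 tested anterior genes, 0.831 over the 11 central and 0.608 over the 7 posterior ones. The counting interval lay wholly below 1 for 1 anterior, 4 central and 6 posterior genes. The share of all genes with such an interval was not computed, so these counts do not set Hox genes apart from other genes. The clusters differed in their ratios. In Hoxc the ratio was low at every tested paralogue, with 0.832 for Hoxc4, 0.778 for Hoxc5, 0.821 for Hoxc6, 0.652 for Hoxc8, 0.741 for Hoxc9 and 0.736 for Hoxc10, each with its interval below 1. In Hoxb it lay between 0.784 and 1.07 with no interval below 1, and in Hoxd it was 0.936 for Hoxd4, 0.736 for Hoxd8 and 0.551 for Hoxd9. Hoxb9, at 0.955 (interval 0.677 to 1.33), was the posterior gene whose interval included 1. These ratios compare the libraries, not the genotypes. The same library had the least skeletal muscle marker RNA (10.97 CPM) and the least brown fat marker RNA (234 CPM) of the 5. It also had the lowest sums of adventitial fibroblast markers (1300 CPM, against 1576 to 2014 CPM in the other libraries) and of Schwann cell markers (160 CPM, against 199 to 217 CPM). Its sums of cardiomyocyte markers (541 CPM, against 399 to 482.5 CPM) and of mesothelial markers (6.92 CPM, against 0.676 to 4.82 CPM) were the highest. Ryr2 alone made up 519 CPM of that cardiomyocyte sum, against 345 to 433 CPM in the other libraries. The other cardiomyocyte markers were mixed, with Tnnt2 highest in this library (5.725 CPM) but Myh7 (0.596 CPM) and Actc1 (3.62 CPM) lowest. Where each dissection ended is not recorded in the labels, and the part of these tissues in the Hox values was not tested.

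**Figure D4:**
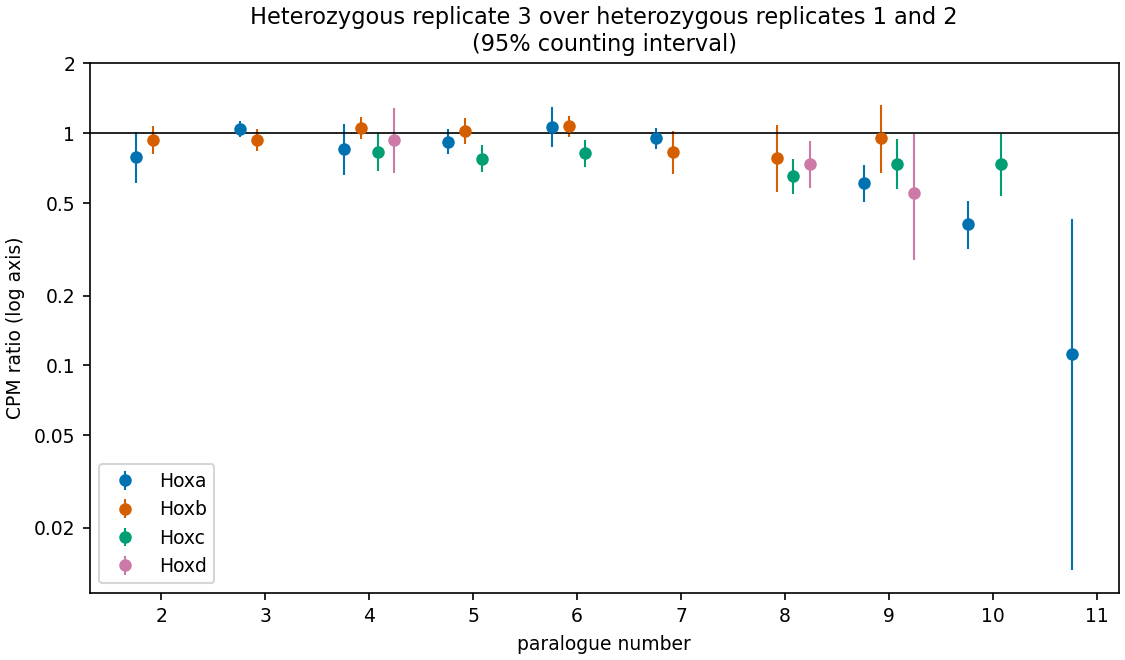
CPM in heterozygous replicate 3 over that in heterozygous replicates 1 and 2 for 26 tested Hox genes, on a log axis against paralogue number, with 95% counting intervals and colours by cluster. Up to paralogue 7 the points lie between 0.778 and 1.07, and the lowest is Hoxa11 at 0.112.

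The homozygous libraries differed less from each other at the posterior end. Homozygous replicate 3 had 1.12 times the tested posterior counts of homozygous replicate 2 (counting interval 1.00 to 1.25), 0.959 times the central (0.915 to 1.00) and 0.942 times the anterior counts (0.896 to 0.991). Hoxa9 (1.28, interval 1.04 to 1.57) and Hoxc8 (1.25, 1.06 to 1.46) were higher in replicate 3, while Hoxa3 (0.915, 0.840 to 0.997), Hoxb3 (0.881, 0.790 to 0.983), Hoxb5 (0.732, 0.625 to 0.856), Hoxb6 (0.798, 0.704 to 0.903) and Hoxb8 (0.673, 0.465 to 0.971) were lower there.

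The remaining posterior genes were low. Hoxc9, which acts in thoracic motor neurons, stood at 3.36 and 3.81 CPM in homozygous libraries, against 5.04, 4.21 and 3.42 CPM in heterozygous libraries, and the groups overlapped (log2 fold change -0.24, SE 0.218). Hoxd9 stood at 0.954 and 0.982 CPM in homozygous libraries, against 1.05, 0.978 and 0.557 CPM in heterozygous libraries (0.15, SE 0.339). Hoxb9 and Hoxc10 gave -0.09 and 0.17 with overlapping groups. Hoxd10, a factor of the lumbar region, was too low for the main test, with 12 and 5 counts in homozygous libraries, against 4, 2 and 1 counts in heterozygous libraries. Both homozygous counts were the higher ones, and with no low-count filter its log2 fold change was 1.86 (edgeR unadjusted p = 0.0284, adjusted p = 0.289). Hoxc11 had 3 and 3 counts in homozygous libraries, against 10, 7 and 1 counts in heterozygous libraries, with heterozygous replicate 3 again lowest. Hoxa13 had 1 to 3 counts in every library and Hoxd3 1 to 9, while Hoxb1, Hoxc12 and Hoxd11 had 1 count in 1 library each.

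None of the cofactors that bind DNA with HOX proteins passed the test. All 9 PBX, MEIS and PKNOX genes were tested, with 0 at an adjusted p under 0.05 (0% of all genes), 0 at an unadjusted p under 0.05 (15.8% of all genes), and a median log2 fold change of -0.07. Of the 9, 8 had a log2 fold change below 0, against 52.8% of all genes. For 3 of the 9 the groups did not overlap, all lower in homozygous libraries, against 18.2% of all genes. Meis1 stood at 70.7 and 75.4 CPM in homozygous libraries, against 84.8, 73.8 and 69.5 CPM in heterozygous libraries (-0.06, SE 0.111), with overlapping groups. Meis2 stood at 63.8 and 60.7 CPM in homozygous libraries, against 65.3, 63.9 and 63.8 CPM in heterozygous libraries (-0.05, SE 0.0829).

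Non-coding and antisense genes between the Hox genes mostly had lower fitted levels in homozygous libraries. Of 46 other genes annotated inside the clusters, 19 had no count, 15 were tested and 14 of those had a log2 fold change below 0 (against 52.8% of all genes), with a median of -0.23. By edgeR 0 passed the adjusted threshold, 2 were lower at an unadjusted p under 0.05 (against 6.75% of all genes), and 6 were lower with no overlap of the groups (against 18.2%). Hoxaas2, which runs into the end of Hoxa3 on the opposite strand, stood at 5.79 and 5.68 CPM in homozygous libraries, against 9.03, 6.70 and 8.39 CPM in heterozygous libraries. The groups did not overlap (log2 fold change -0.49, SE 0.175, adjusted p = 0.253). The other, 5730596B20Rik, lies within Hoxa3 on the opposite strand. It had 2.79 and 2.12 CPM in homozygous libraries, against 4.15, 4.24 and 3.86 CPM in heterozygous libraries. Again the groups did not overlap (-0.74, SE 0.203, adjusted p = 0.167). Exons of both overlap exons of Hoxa3, whose own level did not separate the groups. Gm53, in the Hoxb cluster, gave -0.18 and Hoxb3os -0.03, with overlapping groups.

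None of the regulators that set or hold Hox expression passed the test. Of 29 listed, 24 were tested and 0 passed the adjusted threshold by edgeR, with 3 higher (against 9.04% of all genes) and 0 lower (against 6.75%) at an unadjusted p under 0.05 and a median of 0.05. Over both directions that is near the background of 15.8%. Among the higher ones were Ezh2, the methyltransferase of Polycomb repressive complex 2, at 11.8 and 10.8 CPM in homozygous libraries, against 8.70, 9.01 and 8.67 CPM in heterozygous libraries (log2 fold change 0.36, adjusted p = 0.226 by edgeR), and Gmnn (0.81, adjusted p = 0.213). Their groups did not overlap. Kmt2a, a methyltransferase that keeps Hox genes active, stood at 271 and 259 CPM in homozygous libraries, against 280, 269 and 313 CPM in heterozygous libraries, with overlapping groups (-0.12). Ezh1 gave -0.06 and the retinoic acid receptor gene Rarg 0.00.

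None of the other factors that mark body level or vessel origin passed the adjusted threshold by edgeR. Of 23 listed, 16 were tested, and 2 were higher (against 9.04% of all genes) and 1 lower (against 6.75%) at an unadjusted p under 0.05, a share near the background of 15.8%. Tbx3, a factor of the limb and the conduction system of the heart, stood at 6.78 and 6.20 CPM in homozygous libraries, against 3.20, 3.35 and 1.87 CPM in heterozygous libraries. The groups did not overlap (log2 fold change 1.20, SE 0.259, adjusted p = 0.116 by edgeR and 0.0036 by DESeq2). Tbx18, a gene of mural cells, stood at 69.2 and 75.8 CPM in homozygous libraries, against 97.6, 86.3 and 107 CPM in heterozygous libraries, again with no overlap (-0.42, SE 0.116, adjusted p = 0.171 by edgeR and 0.0414 by DESeq2). Tbx15, a gene of muscle and brown fat among other tissues, stood at 4.73 and 6.88 CPM in homozygous libraries, against 4.64, 2.43 and 2.03 CPM in heterozygous libraries (0.93, adjusted p = 0.281 by edgeR and 0.0264 with no low-count filter). Foxc1 and Nr2f2 gave -0.13 and 0.09 with overlapping groups. As given above, skeletal muscle and brown fat markers were higher in the same homozygous libraries, and their part in the Tbx3 and Tbx15 values was not tested.

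**Figure D5:**
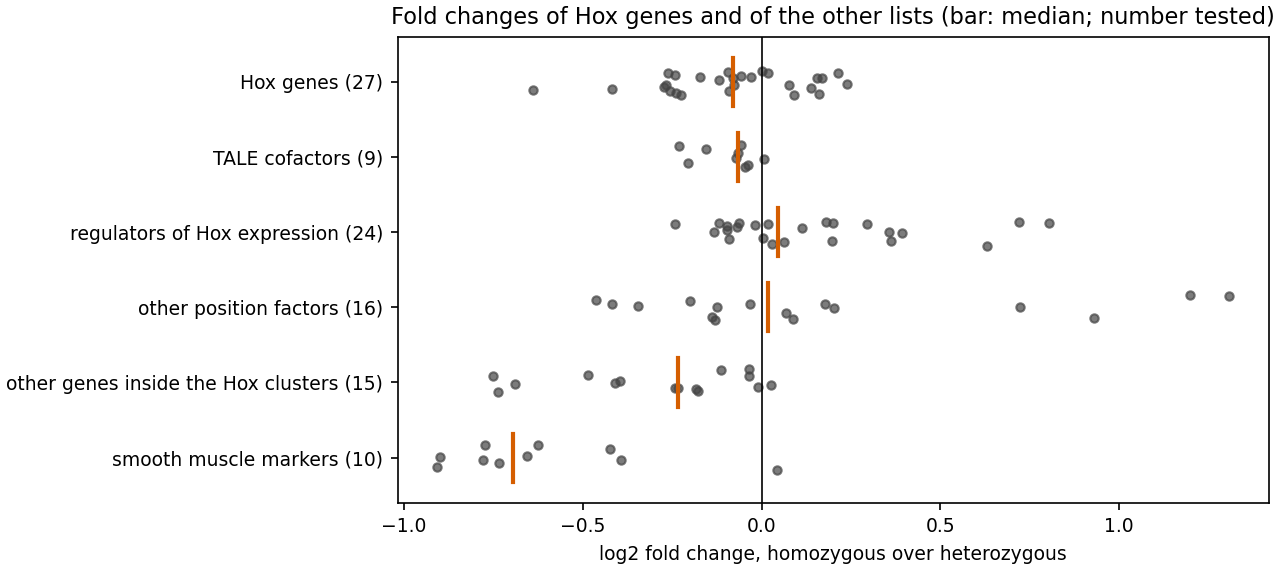
Log2 fold change, homozygous over heterozygous, of each tested gene in the Hox family, the 4 other lists and the smooth muscle markers, with an orange bar at each median and the number tested in brackets. The Hox median is -0.08 and the smooth muscle marker median -0.70.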

How the data were processed

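RNA-seq of 5 individually frozen aortae was analysed. The deposited values are raw counts per gene. Per the submitters' processing notes, the tools were Subread 1.6.4 (the package of featureCounts), STAR 2.7.0f and fastp 0.20.0, and GRCm38 was the build. Annotation release and strand setting were not given in the sources used here. The kit selects poly(A) RNA and keeps strand, per the labels.

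Genes were filtered with filterByExpr, scaled by TMM and tested for group alone by edgeR's quasi-likelihood method (edgeR 4.0.16 under R 4.3.3). P-values were Benjamini-Hochberg adjusted over 18192 genes and called under 0.05, and the common biological variation was 15.8%. DESeq2 1.42.0 and limma-voom (limma 3.58.1) were alternatives. Each of the 5 libraries came from its own aorta. Libraries of one group differed by more than sampling noise.

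CPM used TMM-scaled library sizes, and SDs are over libraries. CPM per kb divides by the union of a gene's exons in GENCODE M21 (GRCm38), where all 39 Hox symbols matched 1 gene. Intervals of fold changes are 95% intervals from the standard error and 7.01 degrees of freedom. Counting intervals of ratios are exact binomial. The Hox genes and the lists were chosen with earlier results of these data known. Genes are named with values if past the adjusted threshold or an unadjusted p of 0.05, among the 3 highest per kb in a cluster, the highest of a paralogue number, or the next 4 by fold change, and in each other list up to 4 at that unadjusted p and the 3 most abundant. Hoxd10, Hoxc11 and other low members were named after their values were seen. Some genes that the rule names are not reported here.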

Additional observations from a re-analysis of the deposited data

How the results depend on the processing

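No Hox gene was called under any of the 12 alternatives run (other scalings, filters and tests, a replicate block, and each library left out). The count over all genes, 0 by edgeR, was 1414 (4.65%) with no low-count filter, 935 by DESeq2, 1 by limma-voom and 0 to 147 with a library left out (147 without heterozygous replicate 2). The replicate block, whose numbers the labels do not tie to a shared origin, gave 5 calls in all and 0 Hox calls. The correlation of deviations was -0.01 for the pair numbered 2 and -0.19 for the pair numbered 3. The median Hox fold change and the group difference in mean paralogue number moved by less than the replicate spread under each alternative run for it, and the sign of that difference turned in 4. The difference in Hoxa share, -0.27 percentage points, was -0.85 without length scaling, -0.71 by longest transcript, and -1.25 to 0.71 with a library left out. Hoxc had the largest difference in share of the clusters, 1.97 percentage points, below the heterozygous SD of 2.07. It was 1.99 without length scaling, 2.12 by longest transcript, and 0.90 to 2.97 with a library left out. The causes of these differences were not tested.

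Of 539 recomputed fold changes of 45 named genes, 24 turned sign. With the replicate block Hoxa3 became 0.045, Hoxa10 0.06, Meis1 0.0277 and Hoxb3os 0.0467, and by limma-voom Rarg became -0.0006. With a library left out, Hoxa3 ranged from -0.0984 to 0.0438, Hoxa4 from -0.059 to 0.0919, Hoxb4 from -0.0068 to 0.0621, Hoxb6 from -0.2505 to 0.0793, Hoxb8 from -0.4839 to 0.0894, Hoxc5 from -0.0018 to 0.2226, Hoxd8 from -0.17 to 0.0779, Hoxd9 from -0.045 to 0.312, Meis1 from -0.1037 to 0.029, Rarg from -0.1077 to 0.1047, Nr2f2 from -0.0341 to 0.2507, Gm53 from -0.6929 to 0.2065 and Hoxb3os from -0.1335 to 0.0426. Depth limits Hoxa11 and the genes below it, and with 1 homozygous library left out the lone one is taken to vary as the heterozygous libraries do.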

Other observations

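Reads over the microRNA genes of the Hox clusters, which reflect long precursor RNA in such libraries, were few. Mir10a, between Hoxb4 and Hoxb5, had 10 and 14 counts in homozygous libraries, against 20, 15 and 8 in heterozygous libraries. Mir196a-1, upstream of Hoxb9, had 9 and 6 counts in homozygous libraries, against 10, 11 and 5 in heterozygous libraries. In both, the groups overlapped (log2 fold change -0.24 for Mir10a and -0.18 for Mir196a-1). Hotair, a transcript of the posterior Hoxc cluster, had 1 and 1 counts in homozygous libraries, against 2, 0 and 1 in heterozygous libraries. Hotairm1, at the anterior end of the Hoxa cluster, stood at 2.86 and 1.75 CPM in homozygous libraries, against 2.98, 3.59 and 5.09 CPM in heterozygous libraries. Its groups did not overlap, with heterozygous replicate 3 the highest, and the log2 fold change was -0.75 (edgeR adjusted p = 0.318).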
